A study of Mus musculus with 20 samples.

Results

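Endothelial cells of the injured mouse sciatic nerve were profiled with and without the semaphorin receptor plexin D1, encoded by Plxnd1. The comparison used 6 of the 20 bulk RNA libraries of the study: 3 from control mice (WT) and 3 from mice in which a Cdh5 CreER transgene, active in endothelium, deleted the floxed Plxnd1 allele (KO). Membership followed the genotype, reporter and time labels, not measured values. All 6 came from adult mice that carried the Kdr-Cherry reporter, and cells were taken from the nerve at 7 days after injury (7 dpi). Nerves were pooled, dissociated with enzymes and sorted as Cherry-positive, CD45-negative cells. No label gives the Cre status, allele or treatment of the control mice, or says which animals a library came from, so the spread between libraries may in part be technical. The labels name the injury a crush while the design text describes cells of the bridge, the tissue that joins the stumps of a cut nerve. The other 14 libraries (5 intact, 5 at 7 dpi and 4 at 14 dpi) were from Cdh5(PAC)-CreERT2 mice with a Tomato reporter. They have no library in common with the comparison. They served to place its genes in the injury response and to give the levels of a few genes in mice outside it.

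Plexin D1 is a single-pass receptor that binds secreted class 3 semaphorins, in part together with neuropilins, and the best known of its ligands is Sema3E. In developing vessels it restrains sprouting: its intracellular domain turns off small GTPases of the R-Ras family and lowers integrin adhesion, and it also takes part in the sensing of flow. Regenerating nerve depends on new vessels that cross the lesion ahead of the Schwann cells.

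The 6 libraries held 19.3 to 33.8 M counted reads. Batch 1292 held 2 WT libraries (replicates 1 and 2) and 1 KO library (replicate 1), and batch 1133 held 1 WT (replicate 3) and 2 KO libraries (replicates 2 and 3), so every fold change below is adjusted for batch. Levels are CPM (counts divided by the TMM-scaled library total in M reads), differences are log2 fold changes with their standard error (SE), and a gene was called at an edgeR adjusted p under 0.05. The sorted cells carried the endothelial signature: the 20 pan-endothelial genes summed to 16838 to 18574 CPM in WT and 17984 to 18903 CPM in KO, and their median log2 difference was 0.03. None of the 20 was called by edgeR or DESeq2, and 6 had an unadjusted edgeR p under 0.05. Over all 16227 tested genes, 11.5% had an unadjusted p under 0.05 and DESeq2 called 1.15%, and counts at these thresholds below are to be read against those shares. Pecam1, an adhesion molecule of endothelial junctions, was at 2810.4, 2934 and 2995 CPM in WT and 3256, 3128 and 2947 CPM in KO.

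Plxnd1 (chromosome 6, 115954811-115995005, GRCm38, minus strand) was itself measured at 349.8, 324 and 343 CPM in the WT libraries and at 131.4, 160.5 and 160.1 CPM in the KO libraries. The 3 KO libraries were all well under the WT range. Its log2 fold change was -1.23 ± 0.10 (SE, adjusted p = 1.3e-04), which left 42.7% of the WT level, and it was -1.10 in batch 1133 and -1.36 in batch 1292. The two-sided exact permutation p over 3 and 3 libraries was 0.1, the smallest such a design allows. Counts cover all exons of the gene, and those outside the floxed part are still counted, so the share of cells with the deletion was not measured.

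The genes beside Plxnd1 that were called moved the other way, and Mbd4 and Ift122 by more than the deleted gene did. Of 29 genes tested within 1 Mb, 4 were called and all 4 were higher in KO, a share of 13.8% where 0.308% of all tested genes were called. Mbd4, a DNA glycosylase that removes mismatched thymine at CpG sites, was at 22.0, 26.5 and 16.2 CPM in WT and 161, 143 and 161 CPM in KO. No WT library came near a KO library, and the log2 difference of 2.97 ± 0.14 had an adjusted p of 8.3e-07. Ift122, a subunit of the retrograde transport complex of cilia, was at 41.9, 46.4 and 49.8 CPM in WT and 335, 244 and 273 CPM in KO, again without overlap (2.65 ± 0.13, adjusted p = 8.3e-07).

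Mbd4 (115840697-115853371, minus strand) and Ift122 (115853470-115926699, plus strand) lie head to head on the 3' side of Plxnd1, 101 kb and 28.1 kb from its end. Between Ift122 and Plxnd1 lies H1foo, the linker histone of oocytes, which was under 2 CPM in every library and not called. Tmcc1, a coiled-coil protein of the endoplasmic reticulum 23.6 kb away on the 5' side, was at 23.3, 25.4 and 27.3 CPM in WT and 46.9, 59.8 and 55.6 CPM in KO. Its libraries did not overlap, and the log2 difference was 1.01 ± 0.13 (adjusted p = 0.00622). Timp4, an inhibitor of metalloproteinases 703 kb away, was at 12.6, 11.1 and 2.41 CPM in WT and 24.6, 5.89 and 8.001 CPM in KO. The WT and KO ranges of Timp4 overlapped across batches and were separate within each (1.26 ± 0.23, adjusted p = 0.0453). Timp4 overlaps Syn2 on the other strand, and reads of the overlapping pair cannot be told apart if strand was not used in counting. The other 25 genes within 1 Mb were not called, and between 1 Mb and 10 Mb only Usp18, an interferon-response gene, was. None of 183 genes within 10 Mb of Cdh5 and none of 84 within 10 Mb of Kdr was called, the genes whose regulatory sequences drive the Cre and the reporter. DESeq2 called 2 of the 183 and 2 of the 84, where it called 1.15% of all tested genes, and 22 and 17 had an unadjusted p under 0.05, where 11.5% of all had.

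Across the 14 Tomato libraries, which carry a CreERT2 transgene and no Plxnd1 deletion in their labels, Mbd4 was at 7.21 to 24.3 CPM, Ift122 at 23.8 to 48.4 CPM and Tmcc1 at 14.4 to 25.1 CPM. All these values lie well below the KO libraries for Mbd4 and Ift122 and below them for Tmcc1, but the Tomato and Cherry experiments were scaled separately. Against the WT libraries they reached lower: in intact nerve Mbd4 was at 7.21 to 10.6 CPM, Ift122 at 23.8 to 32.6 CPM and Tmcc1 at 15.2 to 23.1 CPM, each under the lowest WT library, while at 7 dpi the ranges of Mbd4 (15.6 to 24.3 CPM), Ift122 (34.3 to 48.4 CPM) and Tmcc1 (14.4 to 24.9 CPM) overlapped those of WT. Mbd4 and Ift122 kept their calls when any 1 of the 6 libraries was left out. Tmcc1 lost its call without WT replicate 3 (adjusted p = 0.111), KO replicate 1 (0.0974) or KO replicate 3 (0.0754), and Timp4 lost it in every one of the 6 (0.0693 to 0.400).

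**Figure D1:**
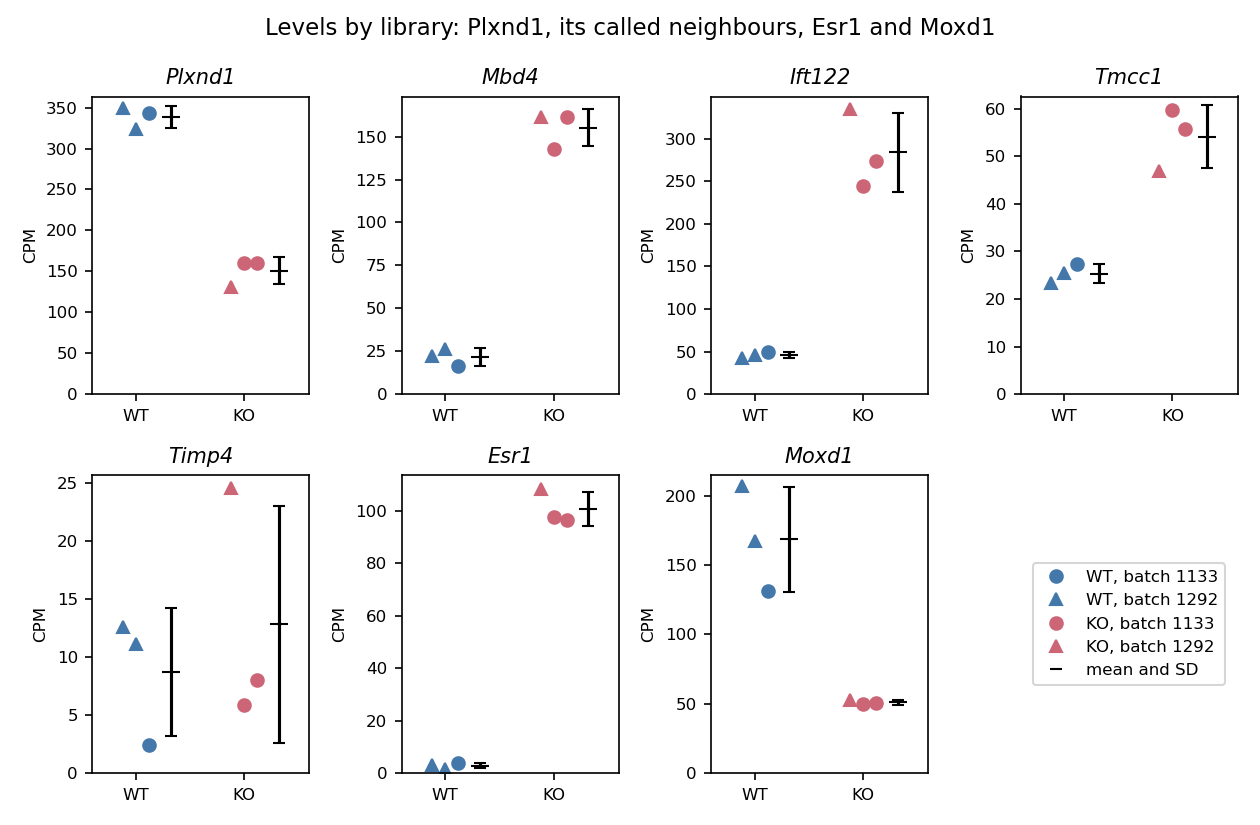
TMM-scaled CPM of Plxnd1, its 4 called neighbours within 1 Mb, Esr1 and Moxd1 in each library; symbols give the batch, colours the genotype, and bars the mean and SD of 3 libraries. The 3 KO libraries lie below the WT libraries for Plxnd1 and Moxd1 and above them for Mbd4, Ift122, Tmcc1 and Esr1, while Timp4 overlaps.

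**Figure D2:**
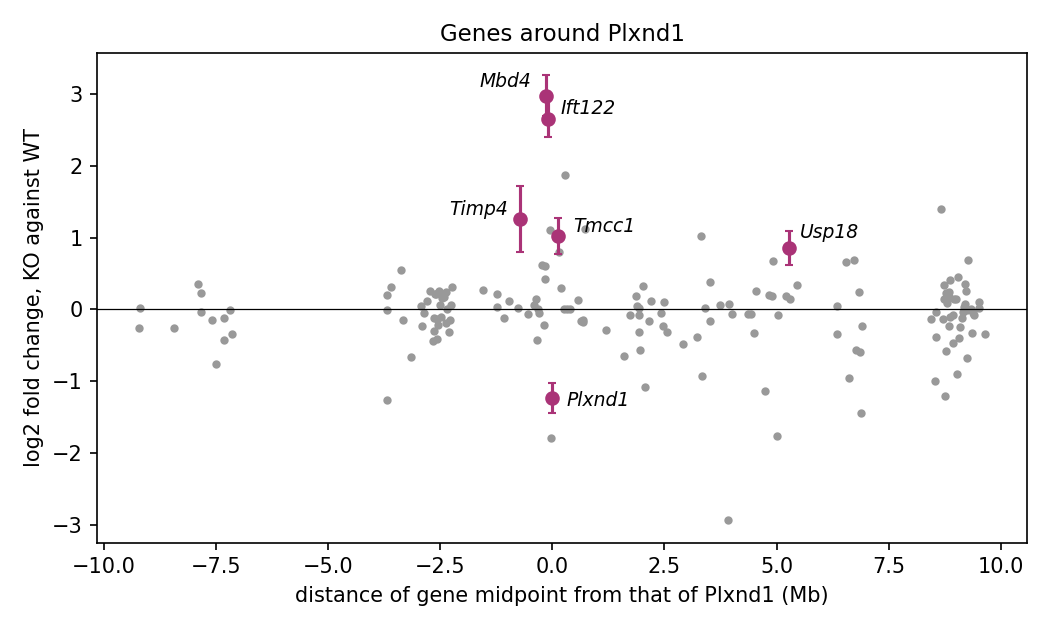
The log2 fold change of every tested gene within 10 Mb of Plxnd1 against the distance between gene midpoints in Mb, with called genes in purple (bars of 2 SE) and the others in grey. Besides Plxnd1, 5 of 170 genes were called, all 5 higher in KO, and 4 of them within 1 Mb.

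Esr1, the estrogen receptor alpha gene on chromosome 10 (4611989-5005614), had the greatest rise of any called gene. It was at 2.92, 1.65 and 3.68 CPM in WT and 108, 97.7 and 96.6 CPM in KO, so that the genotypes stood far apart (5.17 ± 0.23, adjusted p = 1.9e-06). In all 14 Tomato libraries it stood between 33.9 and 90.1 CPM, above every WT library and below every KO library, on a separate scaling. The 7 dpi group was 0.19 above the intact group on the log2 scale (adjusted p = 0.632, not called). The CreER fusion contains the ligand-binding domain of the estrogen receptor, and the Tomato and KO mice carry it by their labels. Whether reads of the transgene were counted to Esr1 was not tested.

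Moxd1, a monooxygenase-like enzyme that is also a marker of perineurial cells, lay further along chromosome 10 (24223517-24302790) and fell. It was at 207, 168 and 131.4 CPM in WT and 52.8, 49.5 and 50.3 CPM in KO, with all KO libraries close together and below all WT libraries (-1.61 ± 0.13, adjusted p = 1.1e-04). The 8 perineurial markers summed to 553 to 635 CPM in WT and 354 to 471 CPM in KO, Moxd1 included, and Moxd1 was the only 1 of the 6 tested that was called. Moxd1 thus contributed to the lower KO sums. The median log2 difference of the 6 was -0.25, with -0.44 in batch 1133 and -0.10 in batch 1292. The part of perineurial RNA in the fall of Moxd1 was not tested. In the first 30 Mb of that chromosome 5 of 117 genes were called: Esr1, Raet1e, Tnfaip3, Mtfr2 and Moxd1. The share called over all tested genes was 0.308%, and this 30 Mb span was not among the planned windows. Outside the neighbourhood of Plxnd1, 10 Mb windows with 3 or more called genes numbered 2 in the genome. These were chromosome 10 at 20 to 30 Mb and chromosome 7 at 140 to 150 Mb, the latter with Hras, Irf7 and the gene model Gm45456. Gm45456 was at 2.14, 3.45 and 2.58 CPM in WT and 0.0548, 0.180 and 0.152 CPM in KO (-4.38 ± 0.60, adjusted p = 0.00891). The size of this fold rests on very few KO reads. In the Tomato libraries the gene was at most at 0.277 CPM.

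Over the genome, 21 genes were higher in KO (0.129% of 16227 tested) and 29 lower (0.179%), Plxnd1 among the latter. Leaving out Plxnd1 and everything within 10 Mb of it, 16 were higher and 28 lower. Differences were modest, since 11 genes in each direction reached 2-fold. All 50 had the same sign in both batches, and 35 did not overlap between the genotypes (16 higher, where 5.47% of all tested genes had every KO library above every WT library, and 19 lower, where 6.30% had the reverse). Genes called by a batch-adjusted fit of these 6 libraries tend to show both, so neither is a separate check. Over all tested genes the fold changes of the 2 batches had a Pearson correlation of 0.09. Within each batch, KO was above WT for all 21 rises and below it for all 29 falls. Of all 16227 tested genes, 2759 and 2643 had this separation, so where it is named for a gene it adds nothing to the call. With scaling by library size alone, the 52 calls were 16 higher and 36 lower. The calls rest on few libraries: 25 genes were called without WT replicate 1, 11 without WT replicate 3, 9 without KO replicate 1 and 6 without KO replicate 3. Those called whichever library was left out were Plxnd1, Mbd4, Ift122, Esr1 and Moxd1.

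Genes of the interferon response were the list with the most called rises. Of 20 listed genes all had a positive difference, with a median of 0.77 where all tested genes had a median of -0.01, and 6 were called higher (Isg15, Ifit1, Ifit3, Oas1a, Usp18 and Irf7). In 13 of them every KO library was above every WT library. Of all tested genes, 5.47% had this separation and 0.129% were called higher. Isg15, a ubiquitin-like protein attached to others in antiviral defence, was at 35.0, 42.8 and 28.0 CPM in WT and 81.9, 49.4 and 53.7 CPM in KO. KO replicate 1 was the highest library and no genotype overlapped the other (0.98 ± 0.13, adjusted p = 0.00753). Ifit1, which binds viral RNA that lacks the host cap, was at 28.2, 25.7 and 22.7 CPM in WT and 64.8, 36.9 and 35.3 CPM in KO, with KO replicate 1 again far above the rest (0.97 ± 0.15, adjusted p = 0.0159).

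Its neighbour and relative Ifit3 followed the same order at 21.4, 19.1 and 14.2 CPM in WT and 55.5, 25.9 and 25.4 CPM in KO (1.16 ± 0.16, adjusted p = 0.00891). Oas1a, a synthase of the oligoadenylates that switch on RNase L, was at 29.0, 31.1 and 21.1 CPM in WT and 55.9, 47.9 and 42.0 CPM in KO, without overlap (0.99 ± 0.13, adjusted p = 0.00760). Usp18, which also lies within 10 Mb of Plxnd1 and removes ISG15 and dampens receptor signalling, was at 41.5, 44.7 and 27.4 CPM in WT and 85.1, 45.3 and 45.0 CPM in KO, and its lowest KO library stood just above its highest WT library (0.85 ± 0.12, adjusted p = 0.00973). Irf7, the transcription factor that amplifies type I interferon, was at 92.8, 99.1 and 61.0 CPM in WT and 137, 113 and 116 CPM in KO, also without overlap (0.71 ± 0.12, adjusted p = 0.0229). Among the 14 members that were not called, Rsad2 (viperin) had 0.85 ± 0.16 (adjusted p = 0.0547) and Bst2 (tetherin) 0.67 ± 0.13 (adjusted p = 0.0547).

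Further called genes known to respond to interferon, outside the list and chosen after their values were seen, were Zbp1, Oasl1, Ifi27l2a and Apol9a (the last below 8 CPM in every library). Zbp1, a sensor of left-handed nucleic acid, was at 11.2, 13.7 and 5.60 CPM in WT and 27.0, 18.4 and 17.03 CPM in KO (1.37 ± 0.20), and its genotypes did not overlap. Oasl1, a relative of the oligoadenylate synthases, was at 10.9, 17.4 and 7.03 CPM in WT and 37.1, 23.9 and 16.8 CPM in KO (1.46 ± 0.22); 1 KO library lay within the WT range, and within each batch KO was above WT. Ifi27l2a (1.40 ± 0.17) was likewise separated within batches only. The Ifit, Oas and Apol9 families hold near-identical copies that can share reads. Antigen presentation genes, which interferon also raises, had a positive difference in 14 of 14 with a median of 0.21; edgeR and DESeq2 called none, and 4 of the 14 had an unadjusted p under 0.05 (11.5% of all tested genes).

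The interferon group depended on single libraries. No list member was called without KO replicate 1 or without KO replicate 3, 3 were without WT replicate 1 and 3 without WT replicate 3, while the list median stayed between 0.65 and 0.81 over the 6. Within batch 1133 the median was 0.67 and within batch 1292 it was 0.65. The summed level of 4 Y-linked genes was 73.4 to 78.3 CPM in WT and 80.2 to 107 CPM in KO, and Xist was at 374, 280.4 and 159 CPM in WT and 86.0, 135 and 93.5 CPM in KO. With the Y genes as a covariate no interferon gene was called and the median was 0.49, with 18 of the 20 positive. That fit called 5 genes in the whole genome, and Plxnd1 itself was not called (adjusted p = 0.103). Whether the sex of the mice plays a part was not tested.

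The bases before the start of 4 of the interferon genes that rose are printed below, and all 4 hold an interferon element. The 150 bases just before the RefSeq start site (GRCm38.p6) are printed in the direction of transcription, with capitals for matches to the interferon element TTCNNTTTC on either strand; overlapping matches run together.
Isg15: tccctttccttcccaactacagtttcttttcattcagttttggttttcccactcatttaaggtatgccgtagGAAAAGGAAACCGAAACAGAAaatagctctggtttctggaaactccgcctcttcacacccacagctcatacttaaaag
Ifit1: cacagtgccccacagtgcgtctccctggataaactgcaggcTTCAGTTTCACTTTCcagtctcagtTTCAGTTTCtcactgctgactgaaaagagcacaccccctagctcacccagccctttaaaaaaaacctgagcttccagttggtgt
Ifit3: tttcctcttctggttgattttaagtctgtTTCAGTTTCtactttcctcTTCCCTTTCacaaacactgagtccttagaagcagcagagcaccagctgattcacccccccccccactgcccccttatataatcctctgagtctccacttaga
Oas1a: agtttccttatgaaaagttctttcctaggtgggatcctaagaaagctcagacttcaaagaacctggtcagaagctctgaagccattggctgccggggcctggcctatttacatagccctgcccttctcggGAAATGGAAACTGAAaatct
The Isg15 window is chr4:156200819-156200968 on the minus strand, that of Ifit1 chr19:34640739-34640888 on the plus strand, that of Ifit3 chr19:34583379-34583528 on the plus strand and that of Oas1a chr5:120907526-120907675 on the minus strand. Isg15 and Ifit1 each hold 3 matches there, Ifit3 and Oas1a hold 2, and Ifit3 has 1 more farther upstream. In Isg15 and Oas1a the matches are on the opposite strand and overlap by 3 bases. Over the 250 bases before each start, the element was in 7 of 18 windows of the genes that rose (38.9%), in 9 of 34 windows of the genes that fell (26.5%) and in 6.24% of the 14222 windows of all tested genes. Counted by gene, since a gene can have several windows, it was in 6 of 15 genes that rose (40.0%), in 9 of 24 that fell (37.5%) and in 7.60% of all tested genes with a window. The other 6 and 5 called genes had no window, and in the interferon list 9 of 16 windows held it. The genes that rose and held it were Isg15, Ifit1, Ifit3, Oas1a, Apol9a and Esr1. The called list members Irf7 and Usp18 were not among them. Sele, Fosl2 and Plxnd1 were among the genes that fell and held it.

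Immediate early genes, the transcription factors that cells switch on within minutes of a stimulus, were lower as a group. All 15 had a negative difference and the median was -0.43. The 4 called lower, where 0.179% of all tested genes were, were Fosb, Nr4a1, Fosl2 and Egr2. Fosb, a partner of Jun in the AP-1 factor, was at 363, 359 and 551 CPM in WT and 236, 307 and 283 CPM in KO. WT replicate 3 was the highest library, and all KO libraries were below all WT libraries (-0.76 ± 0.10, adjusted p = 0.00760). Nr4a1, an orphan nuclear receptor induced in endothelium by growth factors and inflammation, was at 771, 758 and 1191 CPM in WT and 480.1, 709 and 551 CPM in KO, with no overlap (-0.80 ± 0.11, adjusted p = 0.0106). Fosl2, another AP-1 subunit, was at 156, 162 and 191.3 CPM in WT and 86.1, 126 and 138 CPM in KO and kept the same separation (-0.71 ± 0.11, adjusted p = 0.0176).

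Egr2 was at 28.8, 25.3 and 40.1 CPM in WT and 16.7, 18.7 and 14.7 CPM in KO (-0.99 ± 0.17, adjusted p = 0.0355), and it is also the factor that drives myelination in Schwann cells. Nr4a2, a relative of Nr4a1 outside the list, was at 59.9, 49.3 and 95.1 CPM in WT and 29.4, 47.4 and 34.8 CPM in KO and fell by 1.05 on the log2 scale. Fos itself was at 2963, 3330.3 and 3899.5 CPM in WT and 2596, 3003 and 3146 CPM in KO, and its difference of -0.31 ± 0.10 was not called (adjusted p = 0.249). Egr1 (-0.50 ± 0.12), Atf3 (-0.59 ± 0.12) and Egr3 (-1.27 ± 0.27) were not called either. Immediate early genes also respond to enzymatic dissociation of tissue, and the time from nerve to sort was not given. No member was called without KO replicate 1, WT replicate 3 or KO replicate 3, and the median ran from -0.59 to -0.35 over the 6 omissions.

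Adhesion molecules that let leukocytes leave the blood, and their inducers, were also among the genes that fell. Of 17 listed adhesion and chemokine genes 3 were called, all lower, where 0.179% of all tested genes were. The median of the list was -0.24. Sele, which encodes E-selectin of activated endothelium, was at 417, 421 and 567 CPM in WT and 279.9, 337 and 307 CPM in KO. The KO libraries were all below the WT libraries (-0.70 ± 0.10, adjusted p = 0.00994). Selp, for P-selectin, was at 816, 838 and 949 CPM in WT and 567, 668 and 598 CPM in KO, again without overlap (-0.56 ± 0.09, adjusted p = 0.0267). Icam1, the ligand of leukocyte integrins, was at 444, 451 and 773 CPM in WT and 313, 491 and 408 CPM in KO; KO replicate 2 lay inside the WT range, and within each batch KO was below WT (-0.65 ± 0.11, adjusted p = 0.0248). Vcam1 (-0.46 ± 0.12) and Cxcl1 (-0.62 ± 0.15), an adhesion molecule and a neutrophil chemokine, had every KO library below every WT library and were not called (adjusted p = 0.201 and 0.164). Cxcl9 and Cxcl10, chemokines that interferon induces, had positive differences of 0.73 and 0.42 that were not called.

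The NF-kappaB pathway, which drives these adhesion genes, had 2 of 15 listed genes called, both lower, with a list median of -0.19. The share called lower over all tested genes was 0.179%. Nfkbiz, a nuclear IkB protein, was at 389, 352 and 595 CPM in WT and 239, 345 and 306 CPM in KO, with no overlap (-0.75 ± 0.10, adjusted p = 0.00891). Tnfaip3, the feedback inhibitor A20, was at 130.1, 119 and 177 CPM in WT and 61.1, 125 and 85.7 CPM in KO, and KO replicate 2 lay inside the WT range (-0.89 ± 0.15, adjusted p = 0.0292). The subunits Nfkb1 (0.00), Rela (-0.07) and Relb (-0.01) showed no called difference, with intervals of 2 SE from -0.23 to 0.23, from -0.27 to 0.12 and from -0.30 to 0.28. Il6, the cytokine, was at 140.2, 159.9 and 161 CPM in WT and 93.7, 111 and 106 CPM in KO and fell without overlap (-0.62 ± 0.10, adjusted p = 0.0229). Map3k8, the kinase that links these receptors to ERK signalling, was at 58.5, 51.5 and 62.4 CPM in WT and 28.4, 41.7 and 34.3 CPM in KO, without overlap (-0.83 ± 0.14, adjusted p = 0.0229). Nfkbid, another nuclear IkB protein, fell by 1.01. No gene of the adhesion or NF-kappaB list was called without KO replicate 1, WT replicate 3 or KO replicate 3, and without WT replicate 2 the NF-kappaB median moved to -0.07. With no batch term the NF-kappaB median was 0.03, and no gene of either list was called.

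Windows before the starts of 3 of these genes are printed in the same way to set beside the interferon genes, with capitals for AP-1 (TGANTCA; the match in Sele and the first in Tnfaip3) and for an NF-kappaB motif (the second match in Tnfaip3 and the match in Il6). The latter is a looser form with any base at the fourth and the fifth position, chosen after the data were seen.
Sele: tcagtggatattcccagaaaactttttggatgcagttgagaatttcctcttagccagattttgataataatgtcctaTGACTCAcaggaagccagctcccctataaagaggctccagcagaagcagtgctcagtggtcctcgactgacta
Tnfaip3: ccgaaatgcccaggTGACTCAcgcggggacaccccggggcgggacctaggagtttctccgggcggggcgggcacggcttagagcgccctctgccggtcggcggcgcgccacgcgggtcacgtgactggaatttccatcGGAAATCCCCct
Il6: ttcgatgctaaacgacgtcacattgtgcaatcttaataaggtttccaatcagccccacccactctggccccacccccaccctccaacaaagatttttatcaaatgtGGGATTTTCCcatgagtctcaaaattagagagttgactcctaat
These are chr1:164048084-164048233 on the plus strand, chr10:19015411-19015560 on the minus strand and chr5:30012964-30013113 on the plus strand. The AP-1 motif was in 5 of 34 windows of the genes that fell (14.7%), in 2 of 18 of those that rose (11.1%) and in 4.63% of all tested windows. The looser NF-kappaB motif was in 3 of 34 (8.82%), 0 of 18 and 1.46%, and the strict form was found in 1 window of a called gene, Clca3a2, and in 0.183% of all. For the other motifs searched, the shares in windows of the genes that rose, of those that fell and of all tested genes were 22.2%, 11.8% and 11.1% for TEAD (GGAATG), 0%, 14.7% and 20.9% for the hypoxia response element (ACGTG), 0%, 2.94% and 2.43% for CRE (TGACGTCA), 0%, 2.94% and 2.27% for E2F (TTTGGCGC or TTTCCCGC) and 0%, 0% and 0.0211% for the serum response element.

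**Figure D3:**
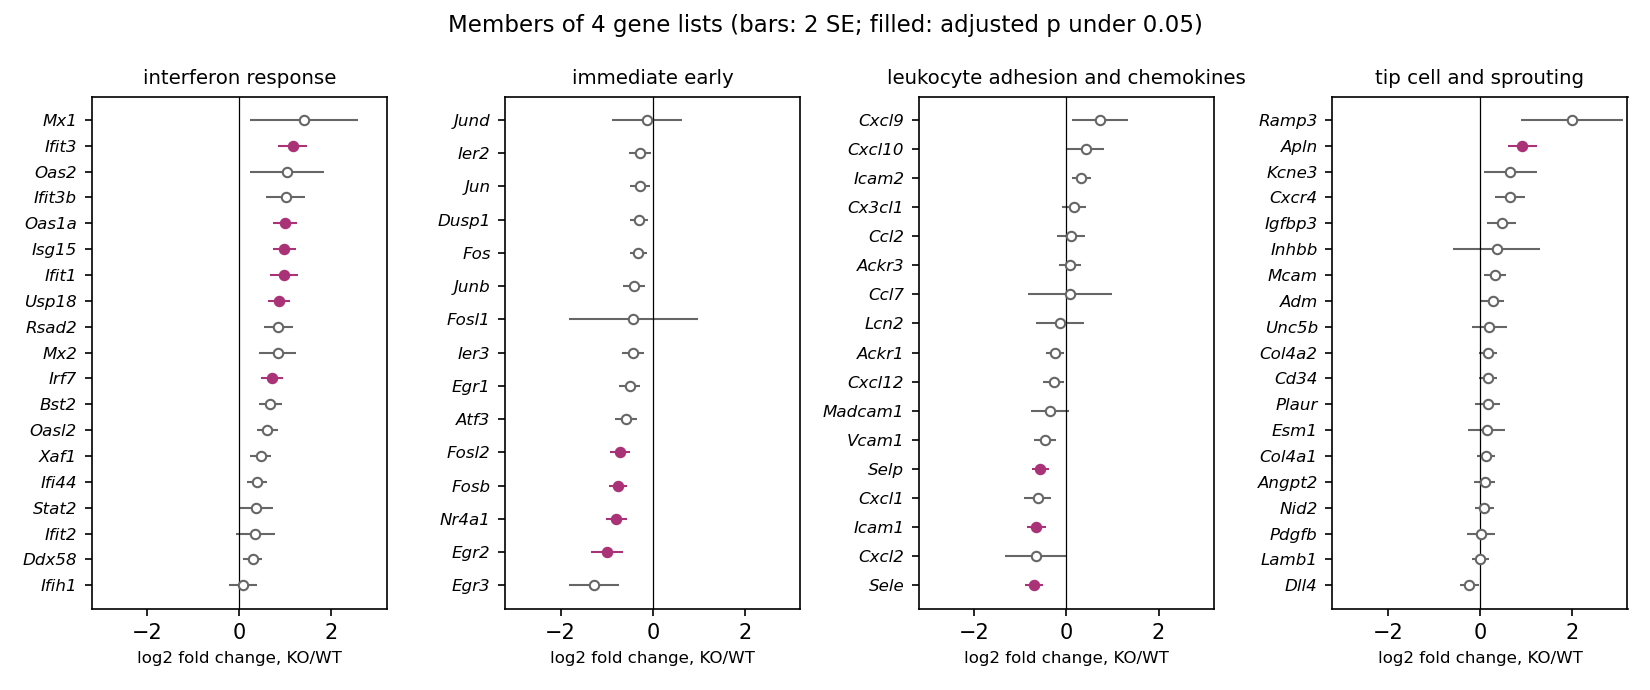
The log2 fold change (KO against WT) with bars of 2 SE for tested members of 4 gene lists, filled where called. The interferon genes shown lie above 0 and the immediate early genes below it, the leukocyte list is divided with its 3 called genes below 0, and Apln is the called member of the tip cell list.

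**Figure D4:**
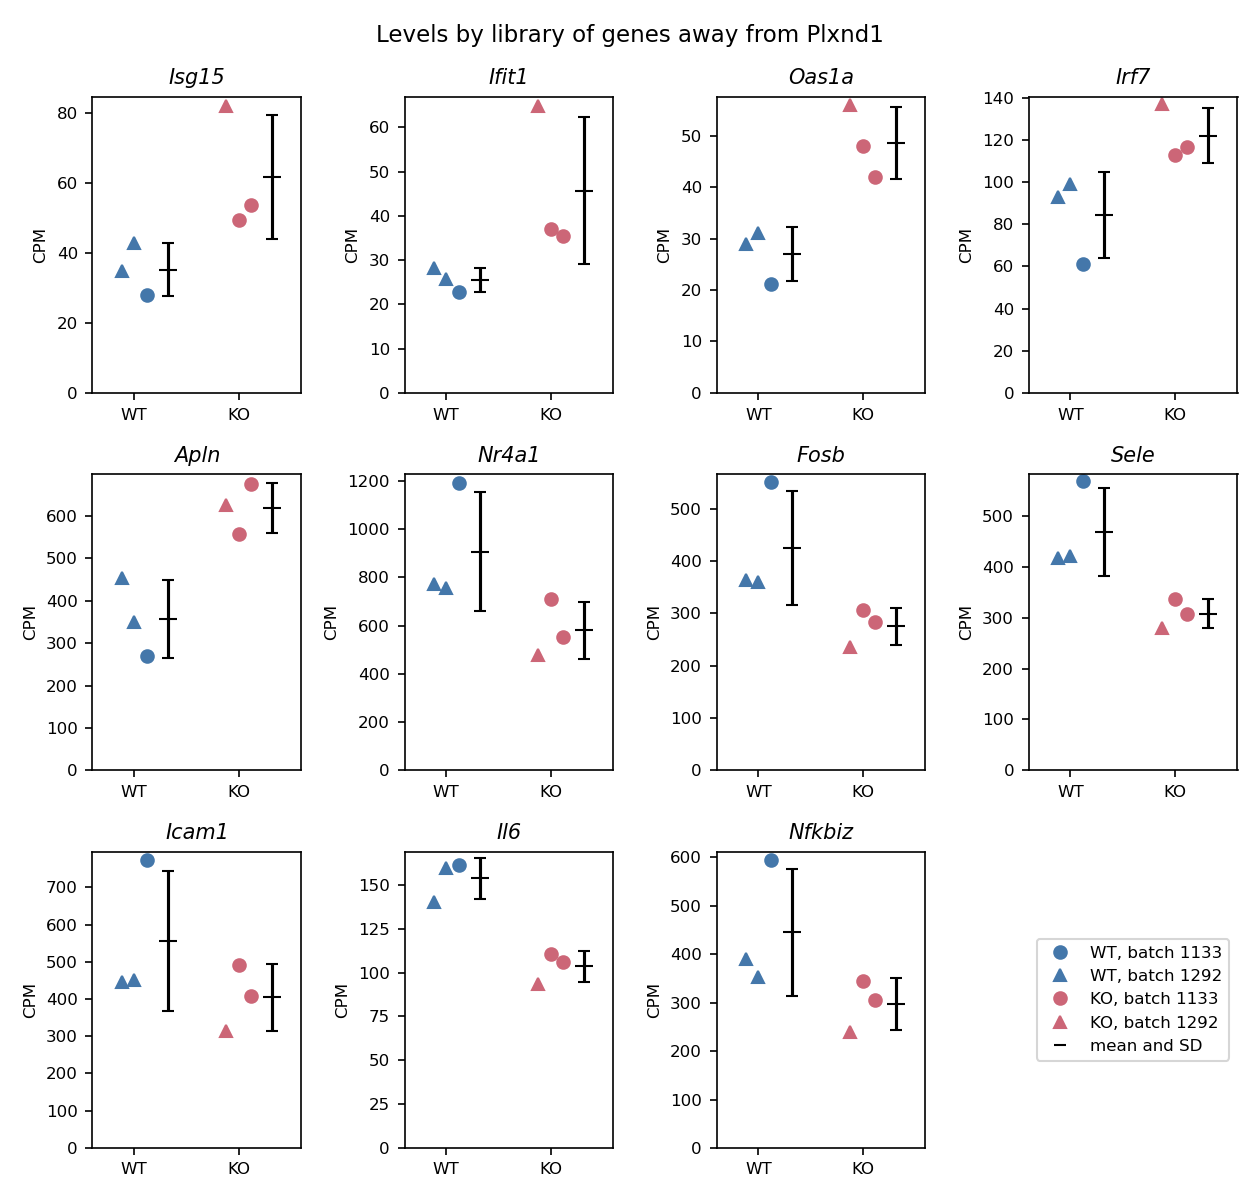
TMM-scaled CPM in each library for 11 called genes outside the Plxnd1 region; symbols give the batch, colours the genotype, and bars the mean and SD of 3 libraries. KO replicate 1 (red triangle) is highest for Isg15, Ifit1, Oas1a and Irf7, and WT replicate 3 (blue circle) is highest for Nr4a1, Fosb, Sele, Icam1 and Nfkbiz.

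Of the tip cell and sprouting list 1 gene was called, where 0.129% of all tested genes were called higher. Apln, which encodes the peptide apelin secreted by tip cells, was at 453, 349 and 269 CPM in WT and 627, 557 and 674 CPM in KO. Every KO library exceeded every WT library (0.92 ± 0.16, adjusted p = 0.0425), with 1.19 in batch 1133 and 0.66 in batch 1292, and the call was lost with any of WT replicate 2, WT replicate 3, KO replicate 1, KO replicate 2 or KO replicate 3 left out (adjusted p = 0.0693 to 0.287). Of the 19 listed genes 18 had a positive difference, and the median was 0.17. This median was 0.40 without KO replicate 1 and 0.13 without WT replicate 3. Esm1, a tip cell marker, was at 102, 68.6 and 42.9 CPM in WT and 73.7, 61.1 and 60.8 CPM in KO and not called (0.14 ± 0.20). Dll4, the Notch ligand of tip cells, was the 1 member with a negative difference (-0.23 ± 0.10, not called).

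Other genes that rose belong to no common list. Chga, for the secretory granule protein chromogranin A, was at 176, 221 and 184 CPM in WT and 304, 425 and 428 CPM in KO, without overlap (0.92 ± 0.14, adjusted p = 0.0233). F2rl3, the thrombin receptor PAR4, was at 49.3, 41.8 and 37.5 CPM in WT and 71.9, 56.2 and 59.1 CPM in KO, also without overlap (0.64 ± 0.12, adjusted p = 0.0489). Gpihbp1, which anchors lipoprotein lipase on capillaries, was at 359, 373 and 217 CPM in WT and 523, 351 and 319 CPM in KO, and it was separated within batches only (0.57 ± 0.10, adjusted p = 0.0279). Hras, a small GTPase, was at 16.7, 15.6 and 34.0 CPM in WT and 24.5, 62.0 and 57.6 CPM in KO, with the libraries of batch 1133 higher in both genotypes (0.71 ± 0.13, adjusted p = 0.0489). Raet1e, a stress ligand of the NKG2D receptor, rose without overlap (1.06 ± 0.14), but its model overlaps Raet1d and H60b, which can share its reads.

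Other genes that fell included Adamts1, a protease that cleaves versican, at 613, 503 and 856 CPM in WT and 328, 540.4 and 457 CPM in KO, with overlap across batches and none within them (-0.77 ± 0.11, adjusted p = 0.0106). Tacr1, the substance P receptor, was at 73.6, 58.2 and 131.4 CPM in WT and 28.4, 74.0 and 70.2 CPM in KO. Its level in batch 1133 exceeded that in batch 1292 in both genotypes, and KO was below WT within each (-1.03 ± 0.13, adjusted p = 0.00668). Afap1l2, an adaptor of Src kinases, was at 35.8, 43.0 and 59.97 CPM in WT and 20.1, 34.0 and 27.3 CPM in KO, without overlap (-0.97 ± 0.14, adjusted p = 0.0121). Apold1, an early-response protein of endothelium (-0.58 ± 0.10), and Ahr, the aryl hydrocarbon receptor (-0.81 ± 0.15), were separated within batches only. Mtfr2 (-1.74 ± 0.32), a mitochondrial fission regulator, and the potassium channel gene Kcnk5 (-1.58 ± 0.28) also fell, from levels below 13 CPM in every library.

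The ligands, co-receptors and effectors of plexin D1 were examined next. Of 19 tested genes of the receptor system Plxnd1 was the only one called, and the median of the list was 0.04. Nrp1, a co-receptor, was at 708, 666 and 887 CPM in WT and 603, 739 and 765 CPM in KO and was not called (-0.21 ± 0.09, adjusted p = 0.406). Nrp2 was at 226, 217 and 275 CPM in WT and 237, 244 and 244 CPM in KO, with a difference whose interval of 2 SE ran from -0.23 to 0.16. Per kilobase of gene model, on the RPKM scale, Plxnd1 averaged 49.1 in WT and 21.8 in KO, Nrp1 209.5 and 195, and Nrp2 23.1 and 23.3.

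The ligand Sema3e was below the filter on low counts. Sema3f and Sema3g, ligands that endothelium itself makes, were at 40.8, 62.4 and 54.7 CPM and at 31.1, 36.1 and 38.0 CPM in WT, and at 49.1, 58.9 and 63.0 CPM and at 36.4, 48.9 and 28.6 CPM in KO, with overlap in both. Myo6, a motor that binds the adaptor Gipc1, had every KO library below every WT library (-0.48 ± 0.12, adjusted p = 0.164), and Gipc1 itself had 0.25 ± 0.12 (adjusted p = 0.443); neither was called. Sema4c had -0.51 ± 0.13 (adjusted p = 0.165). The GTPases that plexins act on, Rras (0.34), Rras2 (0.25) and Mras (0.20), had positive differences that were not called. Sema3a, Sema3b, Sema3c, Sema3d, Sema4a and Farp2 stayed below 20 CPM in every library and were not called, nor were Arf6 and Pip5k1c (0.51 and -0.01).

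Several gene groups had nearly all members on 1 side of 0 without a called gene. The 20 ribosomal protein genes were all positive (median 0.33), as were the 17 oxidative phosphorylation genes (0.24), and 19 of 20 S phase genes were (0.28). At an unadjusted p under 0.05 these lists had 16 of 20, 10 of 17 and 9 of 20 genes, where 11.5% of all tested genes had, and DESeq2 called 1, 0 and 0. With scaling by library size alone, 15 of the 17 and 18 of the 20 were positive. S phase genes had a median of 0.44 within batch 1133 and 0.17 within batch 1292. Negative differences were found for 13 of 15 Notch genes (median -0.17), for 15 of 18 blood-nerve barrier genes (-0.18), for 16 of 19 other plexins and membrane semaphorins (-0.28) and for 9 of 10 venous genes (-0.28, of which Selp was called). Of these, edgeR had 3 of 15, 5 of 18, 5 of 19 and 6 of 10 genes at an unadjusted p under 0.05, against the same 11.5%, and DESeq2 called 0, 0, 1 and 1. With Schwann markers as a covariate, 10 of the 18 barrier genes were positive. Hypoxia (-0.16), glycolysis (0.20), Wnt (-0.13), matrix (0.02), junction (0.08) and mitosis (0.14) genes had medians of this size and no gene called by edgeR; DESeq2 called 2 glycolysis genes and none of the others, and 4 of 16, 6 of 15, 3 of 14, 2 of 21, 4 of 19 and 5 of 20 genes of these 6 lists had an unadjusted p under 0.05, against 11.5% of all.

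Markers of other cells were measured in the same libraries. All 14 Schwann cell markers had a negative difference with a median of -1.30, which was -2.08 without KO replicate 2 and -1.05 without KO replicate 3. Egr2 was the only one edgeR called, while DESeq2 called 4 of the 14 and the fit of the ComBat-Seq table, in which the authors had adjusted counts for batch, called 3. Over all tested genes DESeq2 called 1.15%, and the ComBat-Seq fit, which had no batch term, called 550 of 16131. The Schwann markers summed to 195 to 553 CPM in WT and 149 to 268 CPM in KO, with overlap. In bulk RNA, fewer cells of a type and less RNA per cell cannot be told apart. Macrophage markers summed to 77.2 to 91.3 CPM in WT and 42.1 to 72.9 CPM in KO, with none of the 10 tested called by edgeR or DESeq2 and 1 at an unadjusted p under 0.05, and fibroblast markers to 1680 to 3070 CPM and 1806 to 4377 CPM, the highest in KO replicate 2. The fibroblast median was 0.07, with 0.41 in batch 1133 and -0.23 in batch 1292, and the median of the mural markers was -0.04. With the mean level of the Schwann markers as a covariate, an alternative added after seeing the data, 5 genes were called and they were Plxnd1, Mbd4, Ift122, Esr1 and Moxd1. The interferon list then had a median of 0.60 with 19 of 20 positive, the immediate early list -0.54 and the adhesion list -0.20, with no gene of the 3 lists called.

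The injury response gave a measure of these genes in libraries that the comparison did not use. In the Tomato libraries, cells of injured nerve at 7 dpi were set against those of uninjured nerve, and 32.0% of 20409 tested genes were called, 15.7% higher and 16.3% lower at 7 dpi. Of the 28 genes that fell in KO away from Plxnd1, 27 were tested, 14 were higher at 7 dpi and 5 lower, with a median of 0.86 where the genes of the KO comparison as a whole had 0.01. Sele had risen by 3.11 at 7 dpi, Il6 by 2.18, Selp by 2.02 and Icam1 by 1.35. Of the 16 genes that rose in KO, 5 were higher at 7 dpi and 8 lower. Those higher were Apln (3.47), Chga (7.46), F2rl3 (4.38), Gpihbp1 (1.27) and Raet1e (3.34), each of which therefore moved the same way at injury as in KO. The lower ones were interferon-response genes, among them Ifit3 (-2.40), Ifit1 (-2.25) and Irf7 (-1.54), and of the whole interferon list 13 of 20 were lower at 7 dpi and none higher. Of the 17 adhesion and chemokine genes 12 were higher at 7 dpi and 4 lower, and of the 15 immediate early genes 10 were lower and none higher.

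**Figure D5:**
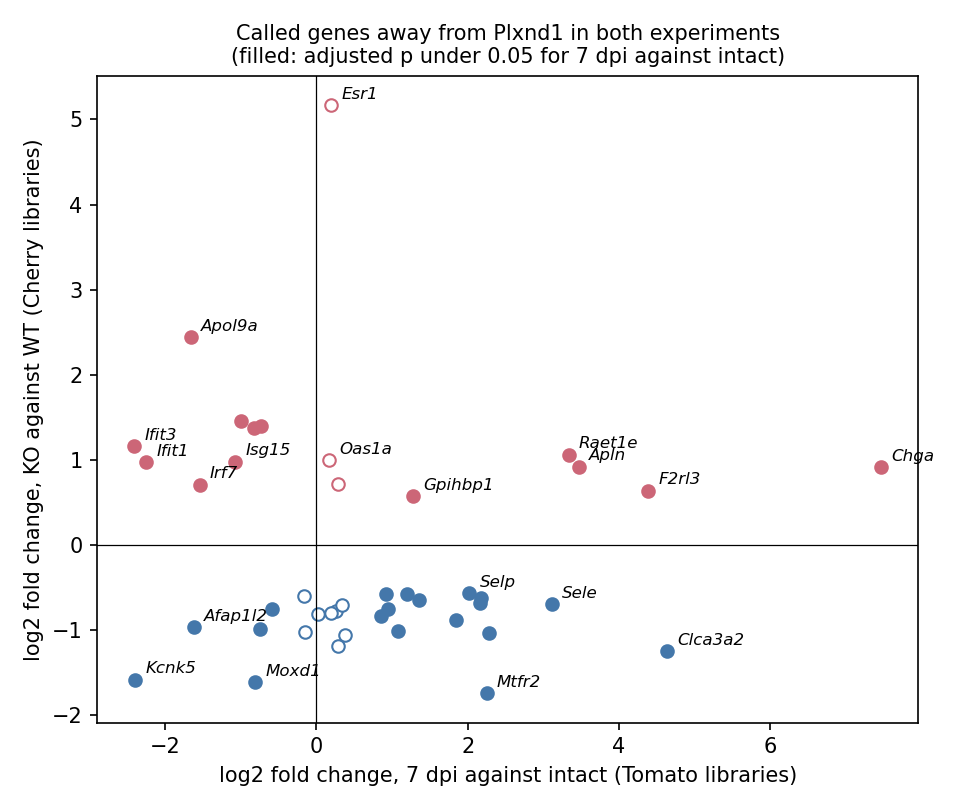
The log2 fold change in KO against WT (vertical axis) against that at 7 dpi over intact nerve in the Tomato libraries (horizontal axis) for the called genes over 10 Mb from Plxnd1 that were tested in both; red marks genes higher and blue genes lower in KO, and filled points were called in the injury comparison. Among the 16 red points 8 filled ones lie to the left of 0 and 5 to the right, and among the 27 blue points 5 and 14.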

How the data were processed

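PolyA RNA of sorted endothelial cells was sequenced in bulk. Whole-number counts for each gene, raw per the file headers, were used as deposited, together with counts that the authors had corrected for batch with ComBat-Seq, which served only as a check. Reads were processed with Trimmomatic 0.39, STAR 2.5.3a and featureCounts 1.6.4 on mm10 (GRCm38), per the submitters' processing notes, which also list Cell Ranger 3.0.2. The annotation, the strand setting and the handling of multiply aligned reads are not stated in the labels. Of 55376 genes, 48692 had the coordinates of GENCODE M21, and 13 of the 50 called genes overlap another gene model.

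The 6 Cherry libraries were fitted with batch and genotype in edgeR 4.0.16 (R 4.3.3): filterByExpr (16227 genes left), TMM, and the quasi-likelihood F test with robust estimation and Benjamini-Hochberg adjustment over all genes tested. The SE is the absolute log2 fold change over the square root of F. Replicates were numbered in accession order. The 14 Tomato libraries had their own fit with batch. Replicates were not duplicates (chi-square per degree of freedom 16.2 to 57.1 over 6 pairs). Alternatives included DESeq2 1.42.0 and limma-voom 3.58.1. The fit was also run on simulated counts whose spread was taken from these same 6 Cherry libraries, and the outcome is not given here. Such a run does not check how the calls change when a library is left out. Library totals of 19.3 to 33.8 M gave a median SE of 0.20 for all genes and 0.14 for 9590 genes whose average log2 CPM was 3 or more.

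The members and the 50 gene lists were chosen with earlier results of these data known. The naming rule took the greatest folds, at most 14 each way (average log2 CPM 3 or more, the batches of 1 sign, over 10 Mb from Plxnd1), the 12 smallest p-values, called and leading members of each list, the receptor system, genes near Plxnd1, and genes of 10 Mb windows with 3 or more calls. The text gives part of them, and Nr4a2, Nfkbid, Zbp1, Oasl1, Ifi27l2a, Apol9a and the uncalled list members beyond the first 2 were chosen after their values were seen. Promoter windows were the 250 bases before RefSeq starts, searched on both strands. Some genes of the lists are not reported here.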

Additional observations from a re-analysis of the deposited data

How the results depend on the processing

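No paired analysis was possible because the labels give no replicate numbers; batch, the shared label, is in the model. Plxnd1 kept its direction under every alternative run (-1.36 to -1.10 when 1 library was left out) and lost its call only with Y genes as a covariate (-1.14, adjusted p = 0.103). No called gene changed sign. Esr1, Mbd4 and Ift122 were called under every alternative, and the other 46 called genes lost the call under at least 1.

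The 50 called genes became 421 with DESeq2, 230 with no filter on low counts, 550 with the ComBat-Seq table, 5 with no batch term, 5 with Y genes and 5 with Schwann markers as a covariate, 22 within batch 1292, 14 within batch 1133, 79 at an adjusted p under 0.1 and 22 at 2-fold or more. All 50 were among the calls of DESeq2, of the unfiltered fit and of the ComBat-Seq table. Leaving out 1 library gave 6 to 40. The 4 called genes near Plxnd1 became 2 with no batch term, within either batch and with either covariate (Y genes or Schwann markers), and 2 to 3 when 1 library was left out. Mbd4 and Ift122 were the 2. The cause of these shifts was not tested, but fits within a batch hold 3 libraries. The count at 7 dpi against intact stayed within 1.5 times its value of 6535 (5600 to 7625). With 3 libraries a group, the smallest called difference was 0.56 on the log2 scale, and differences well below it were not detectable at the usual spread.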
